A study of Mus musculus with 6 samples.

Results

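Cytosolic ribosomal protein genes encode the proteins that join the ribosomal RNAs to form the large (Rpl, Rplp) and small (Rps, Rpsa) subunits of the ribosome. Members were found by gene symbol in the deposited count tables, without protein kinases of the Rps6k family, the binding protein Rps19bp1 and names that end as pseudogenes. The rule found 87 of 24411 symbols, 53 of the large and 34 of the small subunit. Of these, 81 (49 large, 32 small) had at least 10 counts in at least 3 libraries, and the same 81 could be tested.

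Each ribosomal protein sits once in a ribosome, or in a few copies in the case of the stalk proteins, so cells make these proteins in matched amounts. Their mRNAs begin with a 5′ terminal tract of pyrimidines (the TOP motif), through which mTORC1 and the RNA-binding protein Larp1 set how many of them are translated. That control acts on translation, which mRNA counts do not measure. Striated muscle also uses variant proteins, of which Rpl3l, a paralogue of Rpl3 made in heart and skeletal muscle, is the best known.

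RNA came from myotubes of C2C12, an established mouse myoblast line of wild-type genotype whose cells fuse into muscle fibres in low serum. Fully differentiated cultures received either DMSO, the solvent, or 10 µM Sardomozide (as the dihydrochloride) for 72 h, with 3 libraries of each. Sardomozide inhibits the enzyme encoded by Amd1, which provides the aminopropyl groups for the polyamines spermidine and spermine. The comparison asks how the transcripts of muscle fibres differ when that enzyme is inhibited.

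Library totals ran from 25496323 to 36709804 counts. Both groups come from 1 cell line, and nothing says that the 3 libraries of a group were separate cultures, so the p-values speak for the spread of these libraries alone, and that spread may be technical. Pairs of DMSO libraries differed with a chi-square per degree of freedom of 5.45 to 6.88, and pairs of Sardomozide libraries with 9.06 to 16.1. The labels give the cell type as myoblasts, while the titles say myotubes. Of 10 myotube markers 9 were in the files, and their summed level was 17427 to 18715 CPM (counts scaled to library size, with TMM factors) with DMSO and 17955 to 19741 CPM with Sardomozide. Of these 9 markers 1 was called higher and 1 lower. The 5 markers of reserve cells summed to 1353 to 1381 CPM and 1467 to 1547 CPM, and the 6 markers of cycling cells to 259 to 284 CPM and 276 to 323 CPM, with 1 marker of each list called higher and 0 lower. The 4 fibroblast markers summed to 2539 to 3088 CPM and 2222 to 3064 CPM, with 0 of the 3 tested called and Lum at 3 counts or fewer in each library. Of the adipocyte and blood markers, Adipoq, Plin1, Ptprc and Hbb-bs were at 0 in all 6 libraries, and the endothelial markers summed to under 1 CPM. Fabp4 had 3 counts or fewer in each library. Cd68, the remaining blood marker, stood at 1.34 to 1.78 CPM with DMSO and 1.78 to 2.11 CPM with Sardomozide and was not called.

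Ribosomal protein mRNAs as a group stayed close to their DMSO level, and 8 of the 81 passed the test. Subunits were taken from gene names. Higher with Sardomozide were Rpl7l1, Rpl13, Rplp0 and Rpl27 of the large subunit and Rps7 and Rps27l of the small, by 1.10 to 1.22 times. Lower were Rpl3l, the muscle paralogue of Rpl3, with a fitted change of −78.4%, and Rpl10a, by 1.13 times. Rpl3l rested on 29 to 35 counts per DMSO library and 6 to 12 per Sardomozide library. It passed the count filter through the DMSO libraries, where it is high, and was not tested under a stricter filter. The other 73 did not pass. By the quasi-likelihood F test of edgeR, adjusted by Benjamini-Hochberg over all genes, 9.88% of the members were called, against 16.3% of the 13076 genes tested. The share called higher, 7.41%, lay near the 7.88% of all genes, and the share called lower was 2.47% against 8.45%. In bulk RNA, fewer cells of a type and less RNA per cell cannot be told apart.

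The count of 6 higher members became 3 without DMSO replicate 3. The count of 2 lower members was 1 without DMSO replicate 1 and 4 without Sardomozide replicate 2 or 3, and lower members numbered 4 with DESeq2 and 5 without the filter on low counts.

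Most estimates were small. The median log2 fold change was 0.01 over all 81 members, 0.02 over the large subunit and 0.00 over the small, beside −0.00 over all genes tested. Estimates lay within 0.1 of 0 for 56 members and within 0.2 for 72, and beyond 0.3 only for Rpl3l and Rps27. Over all genes tested, 44.1% lay within 0.1 and 17.0% beyond 0.3. Abundant genes are measured more precisely, and 71 members had a mean of at least 100 CPM with DMSO. Among these 71, 5 were called higher and 1 lower, or 8.45%, while 28.8% of all 2320 genes at that level were called.

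**Figure D1:**
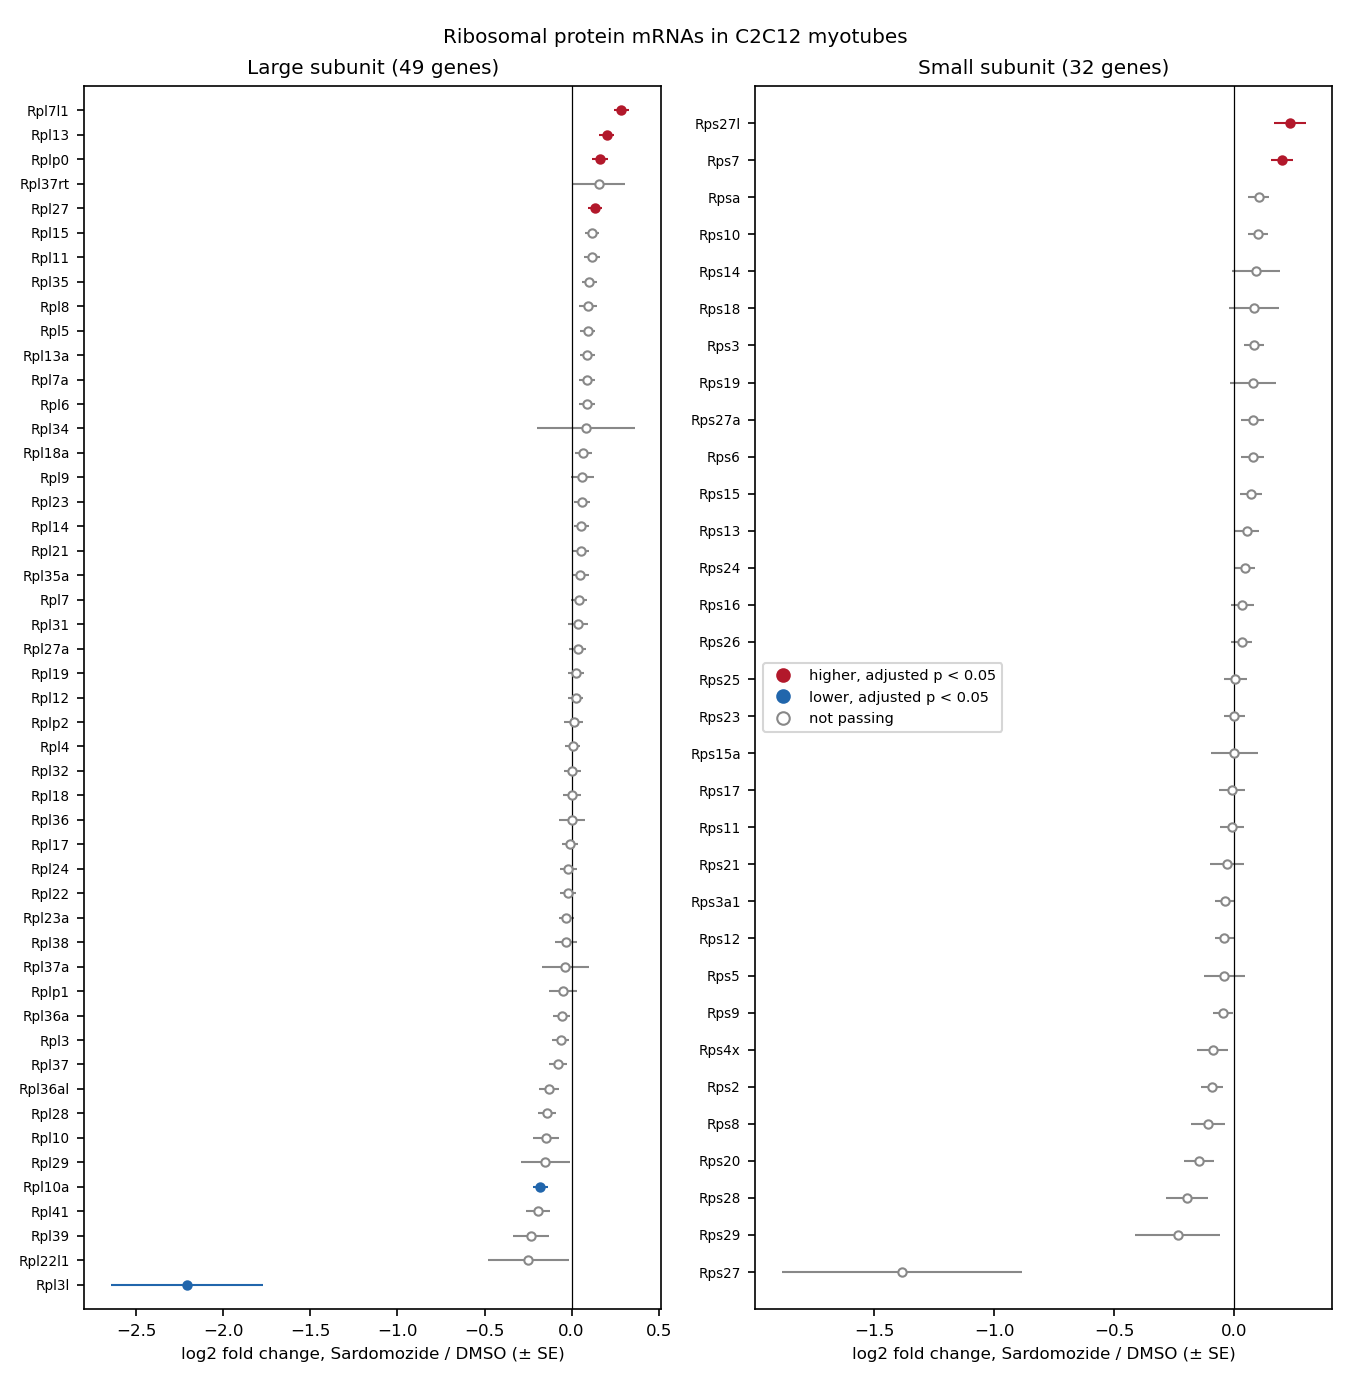
Log2 fold change (Sardomozide over DMSO, horizontal axis) with its standard error for each of the 81 tested members, with the 49 large subunit genes on the left and the 32 small subunit genes on the right. Filled red points were called higher, filled blue points lower and open grey points did not pass. Rpl3l at −2.21 and Rps27 at −1.39, both on few counts, stand apart, and 72 members lie within 0.2 of 0.

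The libraries of the 2 groups did not overlap for 15 members that were higher and 8 that were lower with Sardomozide, and overlapped for the other 58. Over all genes tested, 33.5% did not overlap, 17% higher and 16.5% lower. Members together took 2.65%, 2.69% and 2.56% of all counts with DMSO and 2.57%, 2.80% and 2.70% with Sardomozide. These shares overlapped, and the ratio of the group means was 1.02. The ratio of summed large to summed small subunit counts was 1.731, 1.713 and 1.726 with DMSO and 1.766, 1.733 and 1.738 with Sardomozide. The 3 Sardomozide values all lay above the DMSO values, with means of 1.75 ± 0.0181 and 1.72 ± 0.00942 (SD, n = 3).

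The 100 bases before the start site were read for the genes that passed, since members of the group are known to share promoter features. RefSeq start sites (GRCm38.p6) were found for 66 of the 87 members, 62 of them tested. The motifs searched, on both strands, were CGGAAG (the core bound by ETS factors), the CCAAT box, the TATA box spelled TATAAA, and the muscle E-box CAGCTG, which reads the same on both strands. The sequences shown are those of the 5 called genes that hold one of these, with the motif in capitals, 5′ to 3′ on the gene's strand. CGGAAG reads CTTCCG and CCAAT reads ATTGG where the motif lies on the other strand.
Rpl3l, chr17:24727726-24727825, plus strand: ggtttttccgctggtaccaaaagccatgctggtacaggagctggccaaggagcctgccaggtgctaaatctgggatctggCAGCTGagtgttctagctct
Rps7, chr12:28635954-28636053, minus strand: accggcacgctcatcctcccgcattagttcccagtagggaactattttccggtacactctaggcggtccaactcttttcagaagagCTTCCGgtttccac
Rpl10a, chr17:28328371-28328470, plus strand: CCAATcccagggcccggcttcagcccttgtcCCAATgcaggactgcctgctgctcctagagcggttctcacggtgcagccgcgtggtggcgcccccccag
Rps27l, chr9:66945986-66946085, plus strand: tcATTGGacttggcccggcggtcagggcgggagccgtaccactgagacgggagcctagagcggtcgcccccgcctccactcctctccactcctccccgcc
Rplp0, chr5:115559367-115559466, plus strand: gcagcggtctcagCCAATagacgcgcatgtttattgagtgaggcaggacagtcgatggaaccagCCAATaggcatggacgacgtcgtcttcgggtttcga

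CGGAAG stood in this window in 20 of the 62 tested members (32.3%) and in 8.44% of the 27025 genes with a RefSeq window. CAGCTG stood in 1 of the 62 (1.61%), which was Rpl3l, and in 5.68% of all genes. CCAAT stood in 12 members (19.4%) against 19.6% of all genes, and TATAAA in 2 members (3.23%) against 5.95%. A run of at least 8 C or T anywhere in the 30 bases centred on the start was found in 25 members (40.3%) and in 11.9% of all genes. Such a run can lie wholly before the start, as in Rpl13 and Rps27l, so it does not identify a TOP mRNA. Among the 20 members with CGGAAG, 1 was higher and 0 lower with a median log2 fold change of 0.01. Among the 42 without it, 5 were higher and 2 lower with a median of 0.03. These matches describe the letters only.

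Rpl3l (chr17:24727820-24736143, plus strand) encodes the muscle variant of Rpl3, a core protein of the large subunit near the peptidyl transferase centre. The DMSO libraries held 35, 29 and 35 of its counts and those with Sardomozide 12, 7 and 6, or 1.38, 0.902 and 1.17 CPM against 0.329, 0.204 and 0.192 CPM. All 3 Sardomozide libraries lay below all 3 DMSO libraries. The log2 fold change was −2.21 ± 0.438 (edgeR adjusted p = 0.00151), and Rpl3l was called in each of the 6 fits without a library. Per kb of coding sequence it had the lowest level of the tested members, 0.943 ± 0.195 CPM with DMSO (SD, n = 3). Of the libraries with 10 or more counts, 3 of 4 are DMSO libraries, so the gene passed the filter through the group where it is high, and under a stricter minimum of 50 counts it was not tested.

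Rpl3 (chr15:80077791-80091868, minus strand), the general form, had 336, 340 and 333 CPM with DMSO and 296, 340 and 330 CPM with Sardomozide. The groups overlapped, and the log2 fold change of −0.06 ± 0.0479 did not pass (edgeR adjusted p = 0.415). Taken per coding length, Rpl3l made up 0.404%, 0.262% and 0.348% of the pair with DMSO and 0.110%, 0.0595% and 0.0575% with Sardomozide. The log2 ratio of Rpl3l to Rpl3 fell by 2.14 between the group means, or 4.40-fold. The libraries of the groups did not overlap, and a two-sided exact permutation test gave p = 0.1, which is the smallest p that 3 against 3 libraries allow (adjusted p = 0.167 over the 5 pairs tested). Coding sequences of the pair are 74.3% identical, and their longest shared run is 22 bases, shorter than a read of 150 bases. The summed level of the myotube markers (17427 to 18715 CPM with DMSO, 17955 to 19741 CPM with Sardomozide) overlapped between the groups, while that of the reserve cell markers (1353 to 1381 CPM and 1467 to 1547 CPM) was higher with Sardomozide without overlap. Their part in the Rpl3l result was not tested.

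Rpl10a (chr17:28328471-28331033, plus strand) forms the mobile L1 stalk, beside the site where spent tRNA leaves the ribosome. Its level was 331, 321 and 319 CPM with DMSO and 269, 294 and 295 CPM with Sardomozide. The groups did not overlap, and Sardomozide replicate 1 was the lowest library. The log2 fold change was −0.18 ± 0.0444 (edgeR adjusted p = 0.00827). Without DMSO replicate 1 the call was lost, with an edgeR adjusted p of 0.0519. Of the 150-base windows of its transcript, 86.0% also stand in the processed copy Rpl10a-ps1, so its counts depend on how reads that match both were treated.

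Rpl7l1 (chr17:46773907-46782672, minus strand) is a relative of Rpl7 whose yeast counterpart acts in assembly of the large subunit rather than in the finished ribosome. Rpl7l1 counts as a large subunit gene here by name only, and without it 3 large subunit genes were higher instead of 4. Its level was 111, 108 and 106 CPM with DMSO and 134, 133 and 130 CPM with Sardomozide. Every Sardomozide library lay above every DMSO library. The log2 fold change of 0.29 ± 0.0429 had the smallest adjusted p among the members (edgeR, 0.000107). None of its windows stands in another gene. Rpl7, its parent, had 536, 557 and 527 CPM with DMSO and 530, 585 and 552 CPM with Sardomozide, overlapping between groups, with a log2 fold change of 0.04 ± 0.0452 (edgeR adjusted p = 0.593). The log2 ratio of Rpl7l1 to Rpl7 was 0.24 higher with Sardomozide and did not overlap between groups (two-sided exact permutation p = 0.1, adjusted p = 0.167).

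Rpl13 (chr8:123102350-123105244, plus strand), a large subunit protein, had 566, 536 and 558 CPM with DMSO and 635, 663 and 611 CPM with Sardomozide. The groups did not overlap, and the log2 fold change was 0.20 ± 0.0441 (edgeR adjusted p = 0.00335). Rps7 (chr12:28630854-28635953, minus strand), a small subunit protein that can also bind Mdm2, had 337, 321 and 317 CPM with DMSO and 362, 391 and 366 CPM with Sardomozide. These did not overlap either, and the log2 fold change was 0.20 ± 0.044 (edgeR adjusted p = 0.00344). Both genes were called in each of the 6 fits without a library. Copies of their sequence in other genes cover 77.2% of the windows of Rpl13 and 63.8% of those of Rps7.

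Rplp0 (chr5:115559467-115563727, plus strand), the base of the stalk that recruits translation factors, had the highest CPM of the members. It stood at 1271, 1212 and 1215 CPM with DMSO and at 1329, 1459 and 1347 CPM with Sardomozide. Sardomozide replicate 2 was the highest, and the groups did not overlap. The log2 fold change was 0.16 ± 0.0465 (edgeR adjusted p = 0.0211). The call was lost without DMSO replicate 2, DMSO replicate 3 or Sardomozide replicate 2, with edgeR adjusted p of 0.0825, 0.106 and 0.105.

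Rpl27 (chr11:101442298-101445529, plus strand), a large subunit protein, had 248, 248 and 240 CPM with DMSO and 266, 278 and 263 CPM with Sardomozide. No Sardomozide library reached down to the DMSO libraries, and the log2 fold change was 0.13 ± 0.0414 (edgeR adjusted p = 0.0315). This was the weakest of the calls, and it was lost without any 1 of the DMSO libraries or without Sardomozide replicate 2 (edgeR adjusted p from 0.0687 to 0.146).

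Rps27l (chr9:66946086-66949516, plus strand), a paralogue of Rps27 known as a target of p53, had 39.2, 42.0 and 41.2 CPM with DMSO and 43.6, 48.0 and 52.5 CPM with Sardomozide. Sardomozide replicate 3 was the highest and Sardomozide replicate 1 lay close to the DMSO libraries, without overlap. The log2 fold change was 0.23 ± 0.0665 (edgeR adjusted p = 0.0203). It was lost without DMSO replicate 1, DMSO replicate 3 or Sardomozide replicate 3, with edgeR adjusted p of 0.0965, 0.0527 and 0.124.

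**Figure D2:**
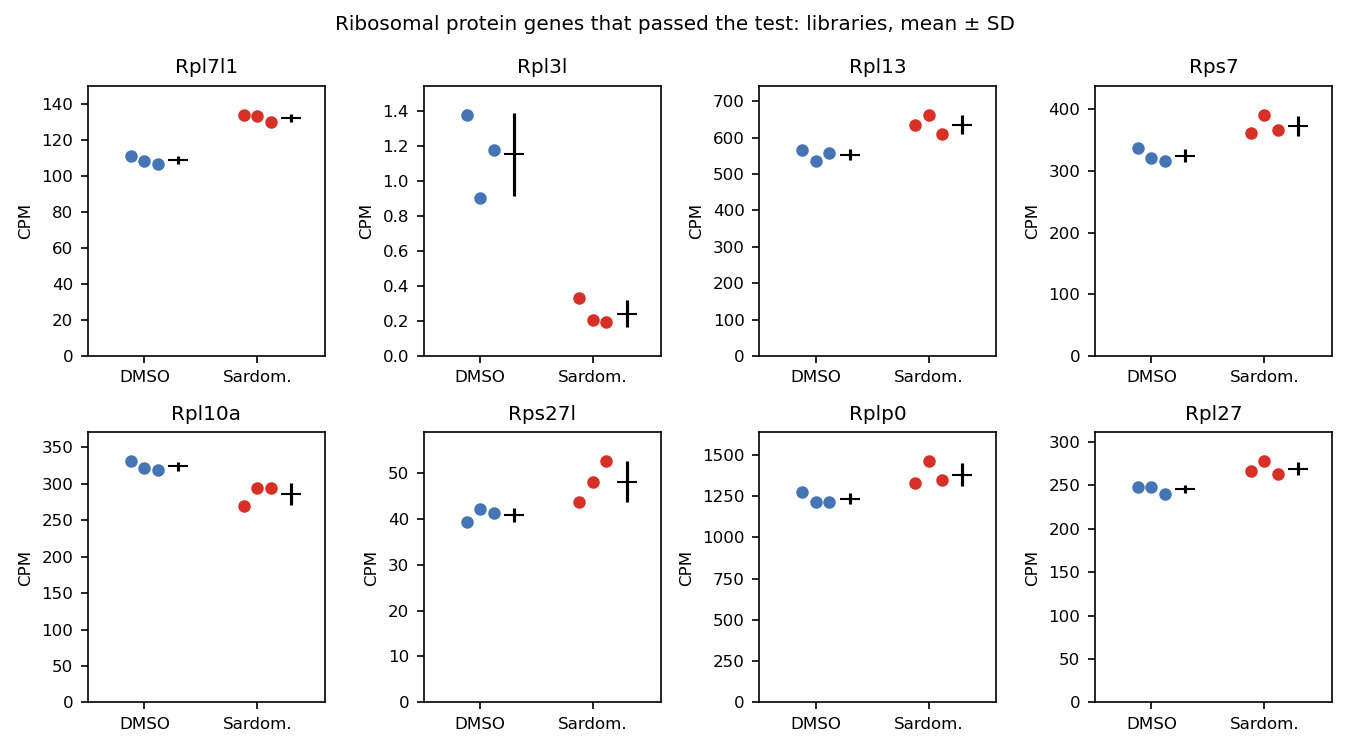
CPM (vertical axis, from 0) of the 8 called members in each of the 3 DMSO libraries (blue) and 3 Sardomozide libraries (red), with the mean and SD of each group in black. In each of the 8 panels the groups do not overlap. Rpl3l falls from 1.15 to 0.242 CPM on average, while the other 7 genes change by 1.10 to 1.22 times.

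Rps27, a zinc-finger protein of the small subunit, has a near-identical copy in the genome. The first 90 coding bases are shown for Rps27, for the retrotransposed copy Rps27rt and for Rps27l, with capitals where a base differs from Rps27.
Rps27: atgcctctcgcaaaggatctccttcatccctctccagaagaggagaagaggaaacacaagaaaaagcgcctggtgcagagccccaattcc
Rps27rt: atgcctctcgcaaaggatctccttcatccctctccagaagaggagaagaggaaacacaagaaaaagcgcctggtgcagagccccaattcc
Rps27l: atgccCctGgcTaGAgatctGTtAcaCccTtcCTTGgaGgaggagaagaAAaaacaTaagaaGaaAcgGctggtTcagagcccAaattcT

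Rps27rt is identical to Rps27 over all 252 coding bases, while Rps27l differs at 60 of them and shares no run longer than 11 bases. Windows of 150 bases of the Rps27 transcript stand in another gene for 98.0%. Its counts were 20, 22 and 12 with DMSO and 9, 8 and 7 with Sardomozide, and Rps27rt had 0 in all 6 libraries. The Sardomozide libraries lay below the DMSO libraries, and the log2 fold change of −1.39 ± 0.50 did not pass (edgeR adjusted p = 0.0636). Rps27 reached the count filter only through the DMSO libraries. Its level is uncertain for both reasons, and so is the ratio of Rps27l to Rps27, which was 1.54 higher on the log2 scale with Sardomozide (two-sided exact permutation p = 0.1, adjusted p = 0.167).

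The other paralogues overlapped between groups in their ratio to the parent. Rpl22l1, the paralogue of the RNA-binding protein Rpl22, had 24.3, 22.3 and 18.3 CPM with DMSO and 12.6, 21.3 and 20.8 CPM with Sardomozide, where Sardomozide replicate 1 was the lowest library. Its log2 fold change of −0.25 ± 0.232 did not pass (edgeR adjusted p = 0.55). Rpl22 had 157 ± 4.99 CPM with DMSO and 154 ± 7.85 CPM with Sardomozide (SD, n = 3). The log2 ratio of the pair differed by −0.26 (two-sided exact permutation p = 0.4, adjusted p = 0.4), and by −0.043 without Sardomozide replicate 1. Without that library the log2 fold change of Rpl22l1 itself was −0.037. The ratio differed by −0.17 without DMSO replicate 1. Rpl36al, an autosomal copy of the X-linked Rpl36a, had 57.0, 57.6 and 55.8 CPM with DMSO and 52.2, 54.5 and 48.9 CPM with Sardomozide. These did not overlap, but its log2 fold change of −0.13 ± 0.0558 did not pass (edgeR adjusted p = 0.119). The ratio to Rpl36a differed by −0.08 (two-sided exact permutation p = 0.3, adjusted p = 0.375), and by −0.025 without Sardomozide replicate 3 and −0.12 without Sardomozide replicate 1. Exons of another gene on the same strand cover 63.1% of the Rpl36al transcript, and 81.1% of the 150-base windows of Rpl36a stand in another gene. The counts of both depend on how shared reads were treated. Rpl10l and Rpl39l, known from testis, and Rps4l, annotated as a transcribed processed pseudogene, were listed at 0 in all 6 libraries. Rpl26, a protein of every ribosome, was listed at 0 as well, so a 0 in these tables does not show that a gene was not expressed. Their parents Rpl10, Rpl39 and Rps4x did not pass, with log2 fold changes of −0.15, −0.23 and −0.09.

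**Figure D3:**
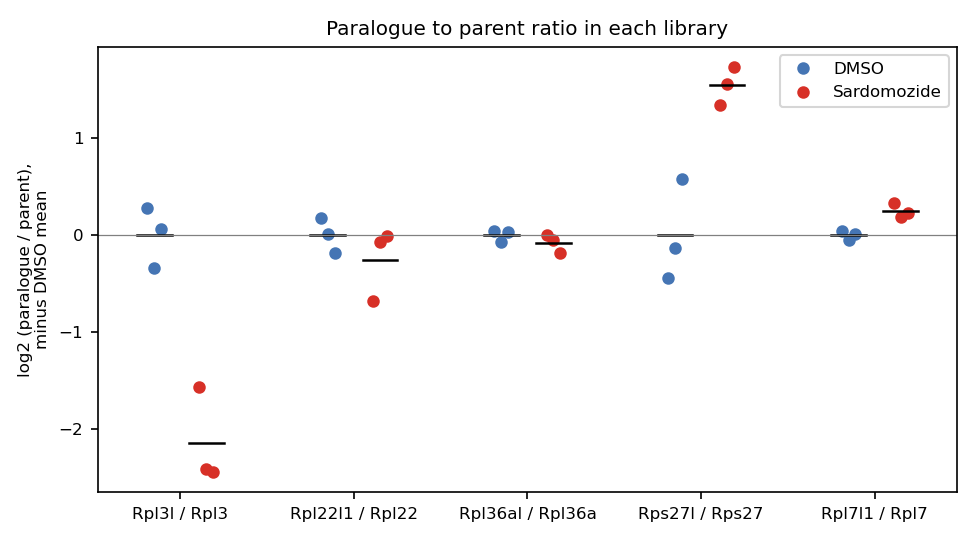
Log2 ratio of paralogue to parent counts in each library (vertical axis, as the difference from the DMSO mean of that pair) for the 5 pairs with enough counts, DMSO in blue and Sardomozide in red with black lines at the means. With Sardomozide the Rpl3l ratio lies at −2.14, the Rpl7l1 ratio at 0.24 and the Rps27l ratio at 1.54, the last resting on few Rps27 counts. The Rpl22l1 and Rpl36al ratios overlap between groups.

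Of the members that did not pass, Rpl15, Rpl28, Rps27, Rpl41 and Rpl11 had the smallest adjusted p. Rpl15 had 322, 319 and 321 CPM with DMSO and 355, 349 and 339 CPM with Sardomozide, without overlap, and a log2 fold change of 0.12 ± 0.0403 (edgeR adjusted p = 0.0503). DESeq2 called it (adjusted p = 0.0297). Rpl28 had 320, 332 and 301 CPM against 266, 307 and 290 CPM, with an overlap, and a log2 fold change of −0.14 ± 0.0512 (edgeR adjusted p = 0.0632). Rpl41, the smallest ribosomal protein, had 318, 347 and 313 CPM against 252, 300 and 303 CPM. These did not overlap, and the log2 fold change was −0.19 ± 0.0687 (edgeR adjusted p = 0.0798, DESeq2 adjusted p = 0.0206).

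Rpl5 and Rpl11, which bind 5S RNA and, when free of the ribosome, the p53 ligase Mdm2, did not pass. Rpl11 had 368, 365 and 356 CPM with DMSO and 391, 417 and 372 CPM with Sardomozide (log2 fold change 0.12 ± 0.0451, edgeR adjusted p = 0.0847). Rpl5 had 491, 506 and 495 CPM against 517, 554 and 517 CPM (0.09 ± 0.0428, edgeR adjusted p = 0.158). Neither gene overlapped between the groups. Rps6, the protein that S6 kinases phosphorylate, had 488, 475 and 469 CPM against 495, 542 and 473 CPM, with an overlap, and a log2 fold change of 0.08 ± 0.0478 (edgeR adjusted p = 0.298).

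Levels were compared between genes per kb of coding sequence, from the mean of the DMSO libraries. The median was 609 CPM per kb, and 245 and 1048 were the 10th and 90th percentiles over 80 members. Rpl41 was highest at 4347 CPM per kb, a value inflated by its coding sequence of only 75 bases. Next came Rplp1, Rpl23, Rps12 and Rplp0 at 1649, 1484, 1327 and 1296 CPM per kb. Rplp1 and Rplp0 both belong to the stalk. The lowest were Rpl3l at 0.943, Rps27 at 2.48, Rpl34 at 4.08, Rpl29 at 43.5 and Rpl22l1 at 59.1 CPM per kb. Rps27 and Rpl34 encode proteins of every ribosome, so their deposited counts cannot be taken as their expression. The level of Rpl29, also far under the median, is uncertain as well.

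Members with low or no counts include proteins that every ribosome holds. Rpl26 had 0 counts in all 6 libraries, and Rpl30, just outside the count filter, had 3, 5 and 4 with DMSO and 16, 15 and 9 with Sardomozide. Rps27 and Rpl3l lay just inside it. Rpl34 had 10 or more counts in all 6 libraries but still few, with 33, 50 and 43 against 65, 51 and 40. The counts of Rpl26, Rpl30 and Rpl34 too cannot be taken as the genes' expression, and no fold is given for Rpl26 and Rpl30. Repeated sequence was measured as the share of 150-base windows that stand exactly in a transcript of another gene. Genes whose span overlaps that of the member were left out, so exons shared with them do not count. It was 8.75% for Rpl26, 24.5% for Rpl30, 10.9% for Rpl34 and 44.0% for Rpl29, around the median of 26.7% over 80 members. Across these 80 genes the Spearman correlation of level with repeated share was 0.04, a description across genes that share libraries and depth. The 22 members under 10% and the 21 members at 50% or more had median levels of 620 and 617 CPM per kb, and 3 higher and 1 lower call each. Copies in the genome outside annotated transcripts were not searched. Rpl30 also overlaps D730044K07Rik on the other strand, and whether counting used strand is not given in the sources used here. Rpl37rt matches the naming rule but is annotated as a processed copy of Rpl37.

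**Figure D4:**
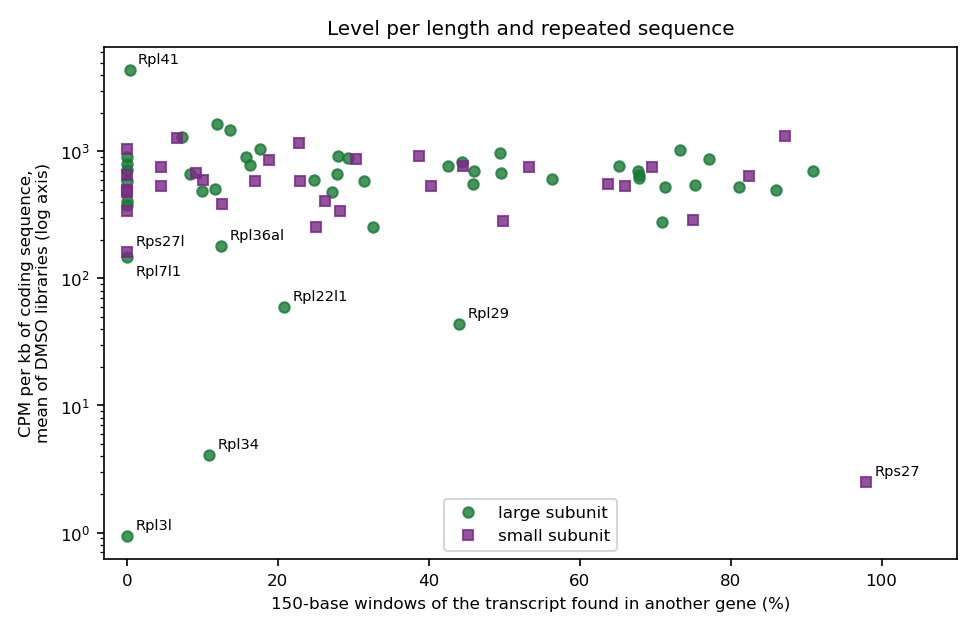
Level with DMSO (CPM per kb of coding sequence, log axis, mean of 3 libraries) against the share of 150-base windows found in another gene (horizontal axis, %) for 80 members, circles for the large and squares for the small subunit. Genes that overlap the member were left out of the search. Low members stand at both ends of the horizontal axis, with Rpl3l at 0.943 CPM per kb and no repeated window and Rps27 at 2.48 CPM per kb and 98.0%.

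Estimates were lower for short members than for long ones. Over the 77 members with at least 20 CPM, log2 fold change and log2 coding length had a Pearson r of 0.41 and a Spearman rho of 0.36 across genes, which share libraries and are not replicates. For 7116 other genes at that level r was −0.00. The 25 shortest members (75 to 399 coding bases) had a median log2 fold change of −0.03, with 1 higher and 0 lower call. The 27 of middle length had a median of 0.05 with 2 higher and 0 lower, and the 25 longest 0.06 with 3 higher and 1 lower. Sardomozide replicate 1 stood lowest among the libraries for the shortest members, with a median deviation of −0.13 from the DMSO mean on the log2 scale. The other values were −0.00, 0.08 and −0.06 for the DMSO libraries and 0.06 and −0.01 for Sardomozide replicates 2 and 3, so the groups overlapped. Short members also varied more within groups, with a median SD of 0.10 against 0.06 for the longest. The 279 other genes as short as these had medians of −0.05 in Sardomozide replicate 1 and of −0.03 to 0.03 in the other 5 libraries. With each library's trend on transcript length and GC content removed, 9 members were called higher and 4 lower. That trend was fitted across all expressed genes and not on coding length. Whether it removes the pattern described here was not tested.

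**Figure D5:**
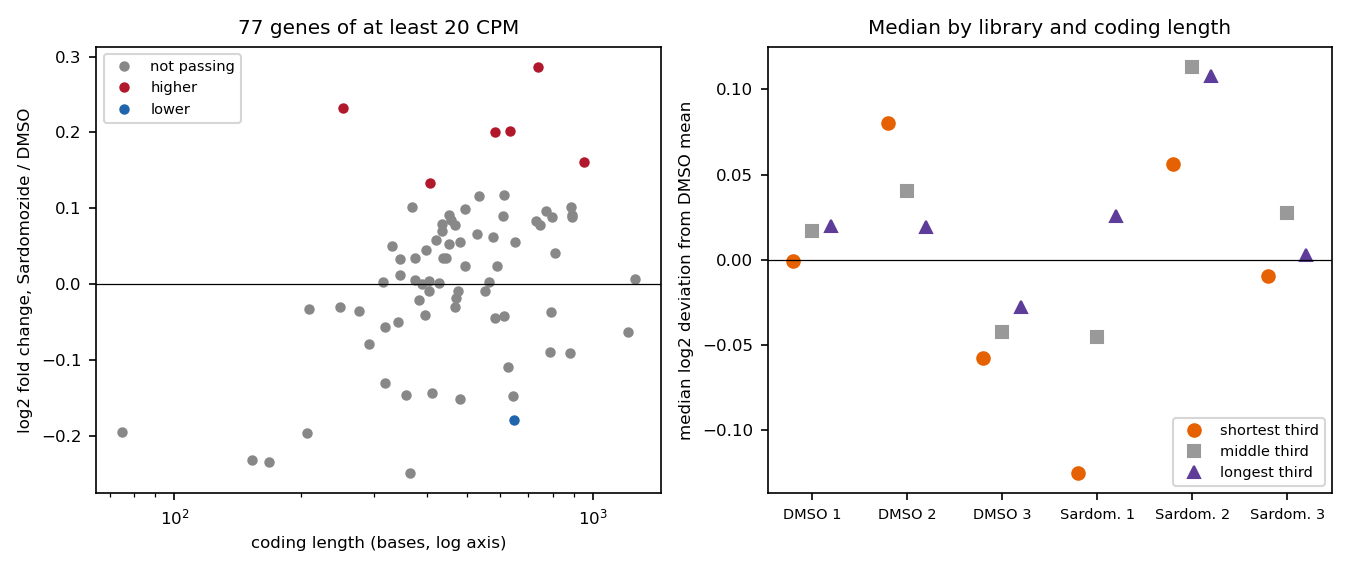
Left, log2 fold change against coding length (bases, log axis) for 77 members with at least 20 CPM, red for called higher, blue for called lower and grey for not passing. Right, median log2 deviation from the DMSO mean in each library for the 25 shortest, 27 middle and 25 longest of these members. The shortest are at −0.13 in Sardomozide replicate 1 and at 0.06 in Sardomozide replicate 2.

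Genes that act on ribosomal proteins or their mRNAs were counted by list, beside the 7.88% of all genes tested that were called higher and the 8.45% called lower, or 28.8% in either direction among genes of at least 100 CPM. Gnb2l1, which encodes the ribosome-bound scaffold RACK1 and falls outside the naming rule, did not pass (log2 fold change 0.04 ± 0.0477, edgeR adjusted p = 0.663). Of 15 chaperones and importins of ribosomal proteins, 4 rose, 0 fell and 11 did not pass, with a list median of 0.03. Grwd1, the chaperone of Rpl3, stood at 20.5 ± 0.319 CPM with DMSO and at 24.9 ± 1.11 CPM with Sardomozide (SD, n = 3), a log2 rise of 0.28 ± 0.0757 (edgeR adjusted p = 0.0148). Tnpo1, an import receptor, Heatr3, which carries Rpl5 and Rpl11, and Aamp rose by 0.14, 0.13 and 0.13 with edgeR adjusted p of 0.048, 0.0456 and 0.0492. DESeq2 called none of these last 3 (adjusted p of 0.0551, 0.0654 and 0.0583). Leaving out 1 library ended the call of Heatr3 in each of the 6 fits, of Aamp in all but that without Sardomozide replicate 2, and of Tnpo1 in all but those without DMSO replicate 2 or Sardomozide replicate 1. The call of Grwd1 was lost without DMSO replicate 2, DMSO replicate 3 or Sardomozide replicate 2 (edgeR adjusted p from 0.0508 to 0.058).

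Of 19 regulators of mTORC1 and TOP mRNAs, 5 rose, 1 fell and 13 did not pass, with a median of 0.04. The share called in either direction was 16.3% over all genes tested and 28.8% among those of at least 100 CPM. Deptor, an inhibitor bound to mTOR, fell, at 451 ± 13.9 CPM with DMSO and 389 ± 17.1 CPM with Sardomozide, with a log2 difference of −0.22 ± 0.044 (edgeR adjusted p = 0.00193). Rptor, the scaffold of mTORC1, rose from 218 ± 3.72 to 244 ± 3.17 CPM (0.16 ± 0.0403, edgeR adjusted p = 0.00749), and Rheb, its activating GTPase, rose by 0.18 ± 0.0517 (edgeR adjusted p = 0.0203). Larp4, an RNA-binding protein of the La-related family, rose by 0.22 ± 0.0416 (edgeR adjusted p = 0.00105). The call of Rptor was lost without DMSO replicate 3 (edgeR adjusted p = 0.0507), and that of Rheb without any 1 DMSO library or Sardomozide replicate 2 (0.0525 to 0.0856).

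Among 18 other TOP mRNAs, 1 rose, 1 fell and 16 did not pass, with a median of −0.03. Eef1g, a subunit of the elongation factor that reloads eEF1A, rose by 0.15 ± 0.0448 (edgeR adjusted p = 0.0218), and Vim, which encodes the intermediate filament vimentin, fell by 0.31 ± 0.0468 (edgeR adjusted p = 0.000107). The call of Eef1g was lost without any 1 DMSO library or Sardomozide replicate 2 (0.0684 to 0.113). Of 15 genes of ribosome quality control and turnover, Zak alone passed. This kinase, which responds to stalled ribosomes, rose from 255 ± 0.263 to 299 ± 9.43 CPM, by 0.23 ± 0.0411 on the log2 scale (edgeR adjusted p = 0.000699).

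Of 9 transcription factors known at ribosomal protein promoters, 2 rose and 0 fell, with a median of 0.11. Yy1 rose by 0.21 ± 0.0587 (edgeR adjusted p = 0.016) and Zfp143 by 0.23 ± 0.0711 (edgeR adjusted p = 0.0296). Yy1 was no longer called without DMSO replicate 2 or 3 or Sardomozide replicate 1 (adjusted p up to 0.0938), nor Zfp143 without any 1 DMSO library or Sardomozide replicate 1 (up to 0.118). Of 6 genes of the p53 arm through which free Rpl5 and Rpl11 act, 3 rose and 0 fell, with a median of 0.14. Ccng1, Aen and Cdkn1a, targets of p53 like Rps27l, rose by 0.53 ± 0.0477, 0.49 ± 0.0501 and 0.22 ± 0.0447 on the log2 scale (edgeR adjusted p = 2e-07, 1.52e-06 and 0.00178). Not called were Mdm2 at −0.08 ± 0.0455, Mdm4 at −0.09 ± 0.069 and Trp53 at 0.06 ± 0.0496 on that scale. Each of these 3 overlapped between the groups, and edgeR's test left them at 0.259, 0.391 and 0.428 after adjustment. Activity of p53 was not tested.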

How the data were processed

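RNA-seq of 6 libraries of C2C12 myotubes was analysed, 3 with DMSO and 3 with Sardomozide, as grouped by the labels. The authors deposited raw counts per gene symbol from paired reads of 150 bases. Per the submitters' processing notes, the tools were STAR, StringTie and DESeq2 and the builds are named as GRCm38 and mm10. Not given in the sources used here are versions, annotation, strand and the treatment of reads with several matches.

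Genes were filtered with filterByExpr (minimum count 10), scaled by TMM and tested with edgeR 4.0.16 (R 4.3.3, quasi-likelihood with robust estimation, two-sided). Benjamini-Hochberg adjustment ran over 13076 genes, and an adjusted p under 0.05 was called. Standard errors come from the fold change and its F statistic. The steps were tested on simulated counts. Ratios of paralogue to parent used a pseudocount of 0.5 and exact permutation tests adjusted over 5 pairs. Coding lengths, coordinates and repeated windows come from GENCODE M21 (GRCm38) and start sites from RefSeq GRCm38.p6.

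The members and lists were chosen with earlier results of these data known. Named were every called member, paralogues with their parents, the 5 uncalled members with the smallest adjusted p, the 5 highest and 5 lowest levels per length, Rpl5, Rpl11, Rps6, members at the count filter and up to 4 called genes per list (2 where none was called). One gene that the rule takes is not reported here. Rpl26, Rpl37rt, D730044K07Rik, Mdm2, Mdm4, Trp53 and the pseudogenes fall outside this rule and were named after their values were seen. Alternatives were other scaling factors, DESeq2 1.42.0, limma-voom (limma 3.58.1), other filters, estimation without robustness, the replicate number as a block, a length and GC correction and leaving out each library. A restriction to members with under 50% repeated windows was chosen after seeing the data, as was leaving out Rpl7l1.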

Additional observations from a re-analysis of the deposited data

Results flagged for a closer look

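Rps15a-ps6, a processed pseudogene of the small subunit gene Rps15a that the naming rule leaves out, showed a difference in counts that no comparison above uses. Counts were 159, 171 and 162 with DMSO and 286, 337 and 239 with Sardomozide, without overlap. The log2 fold change was 0.58 ± 0.138 (edgeR adjusted p = 0.00636). The pseudogene (chr11:6172644-6173036) lies within the span of Nudcd3 (chr11:6105691-6200415), whose log2 fold change was −0.02 ± 0.0411 (edgeR adjusted p = 0.79). Whether reads of Rps15a entered this row was not tested.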

How the results depend on the processing

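With the replicate block, in which the replicate number was a term of the fit, 4 members were called higher and 5 lower, against 6 and 2 without it, so some of the lower calls were other genes. The block gave 2 higher large subunit genes and 2 lower small subunit genes. Over all genes, same-numbered libraries did not deviate together (correlations of 0.022, −0.023 and −0.018), and DMSO replicate 1 correlated best with Sardomozide replicate 2 (0.026). The largest correlation of any pair was 0.071, for DMSO replicate 2 with Sardomozide replicate 3. Over the members, the same-numbered correlations were 0.11, 0.43 and −0.23, and that of DMSO replicate 2 with Sardomozide replicate 3 was also 0.43. With deviations from means of 3 libraries, these values cannot settle whether the numbers pair the samples. Lower members numbered 5 without the low-count filter, 1 with the stricter one, and 4 with DESeq2 or with the length and GC trend removed. For the large subunit these settings gave 4 lower without the filter, 1 with the stricter one and 4 with DESeq2, and 7 higher with the trend removed. For the small subunit 1 was lower without the filter or with the trend removed. Among members with under 50% repeated windows, 3 were higher and 1 lower.

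Leaving out each library in turn gave 3 to 8 higher and 1 to 4 lower members, 2 to 5 higher and 1 to 4 lower large subunit genes, and 1 to 3 higher and 0 to 1 lower small subunit genes. Such fits have fewer samples. The median over members ranged from −0.02 to 0.05 there, and the Rpl3l to Rpl3 log2 ratio from −2.43 to −1.99. There Rpl22 ranged from −0.060 to 0.0137, above 0 without DMSO replicate 2 (0.0028) or Sardomozide replicate 1, and Gnb2l1 from −0.0081 (without Sardomozide replicate 2) to 0.086. Among the 42 single genes for which alternatives were run, no other changed sign. With windows of 100 bases the correlation of level with repeated share was −0.027. The cause of these shifts was not tested. Members under about 1 CPM rest on few counts.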

Other observations

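Other pseudogene rows of ribosomal proteins also held counts. For Rps15a-ps4 the DMSO libraries held 1, 4 and 0 and the Sardomozide libraries 14, 13 and 3, too few to be tested. Rps19-ps3 had 56, 72 and 49 against 45, 62 and 46 counts, and Rpl14-ps1 had 234, 273 and 281 against 361, 346 and 276. Neither of the last 2 passed edgeR's test (adjusted p = 0.304 and 0.648). Rps19bp1, a protein that binds Rps19 and is not a subunit, had a log2 fold change of 0.19 ± 0.0684 (edgeR adjusted p = 0.0693).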
